A study of Mus musculus and Rattus norvegicus with 37 samples.

Results

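The 10 genes described here encode proteins that coat, build or empty the lipid droplet of the liver cell. They are the perilipins Plin2, Plin3, Plin4 and Plin5, the CIDE genes Cideb and Cidec, the fat storage-inducing transmembrane (FIT) genes Fitm1 and Fitm2, and the lipolysis inhibitors G0s2 and Hilpda. They were picked by gene symbol, and all 10 were found in each of the 4 expression tables, among 47929 named genes in each mouse table and 28026 in each rat table. Fitm1 was included because it lay lower after inhibition of miR-29, so its values in that contrast are given as a description, without a test. The other 9 genes were included for what their proteins do at the droplet, with earlier results of these data known.

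The values are RNA-seq gene counts of 37 livers, normalized by the authors within each table and called normalized counts below. All mice were female and on the C57BL/6J background, and chow is stated for the WT mice. LNA29, a pair of locked nucleic acid inhibitors against miR-29a and miR-29b/c, was injected once at 20 mg/kg each, controls received saline and no control oligonucleotide, and livers were taken in the fed state on day 7. In the WT/Floxed table there were 8 LNA29-treated livers (4 from WT and 4 from floxed mice) and 5 saline-treated livers (3 from WT and 2 from floxed mice), after the authors left out 1 floxed saline mouse as an outlier. WT mice were 9 to 11 weeks old and floxed mice, which carry the loxP-flanked Sirt1 allele without Cre, were 15 to 20 weeks old, so that age and background cannot be told apart, and mice came from 2 sites that the labels do not give. The L-Sirt1 KO table held 4 LNA29-treated and 4 saline-treated livers of liver-specific Sirt1 knockout mice aged 15 to 20 weeks. The Cre line is not given in the sources used here. Sirt1 itself was listed at 535 to 617 normalized counts in the 8 livers labelled L-Sirt1 KO and at 493 to 699 in the 13 WT/Floxed livers, so the gene count did not show the loss of Sirt1. The study also measured hepatic Sirt1 by RT-qPCR, which is not analysed here. A transcript that lacks only the deleted part would still be counted, and these mice are called the mice labelled L-Sirt1 KO. The rat groups had 4 livers each, all from males in the fed state: Zucker fatty rats (ZFRs), which lack a working leptin receptor (fa/fa), and Zucker lean rats (ZLRs), both on chow at 5.5 months, and 3-month-old ZFRs given BT2 or its vehicle dimethylsulfoxide for 7 days. BT2 inhibits the kinase of branched-chain ketoacid dehydrogenase and was injected into the peritoneum daily at 20 mg/kg. Estimated depth was 42.6 to 78.0 M reads in mice and 0.189 to 58.5 M reads in rats, where 6 of the 16 libraries held under 1 M reads (ZLR 3 and 4, ZFR 3, BT2 1 and 4, and vehicle 4). The p-values measure only the spread between these livers, 1 library each.

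Triglyceride made in the endoplasmic reticulum of a hepatocyte collects between the leaflets of the membrane, buds toward the cytosol and becomes a droplet. FIT proteins help the droplet to bud, perilipins cover its surface and hold back lipases, and CIDE proteins let droplets grow or hand lipid to very low density lipoprotein. Adipose triglyceride lipase (ATGL, encoded by Pnpla2) starts the breakdown of stored fat and is held in check by G0s2 and Hilpda. Several droplet genes of the liver are known targets of PPAR-alpha and, in fatty liver, of PPAR-gamma.

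LNA29 pairs with the mature miR-29 family, whose 3 members share 1 seed (bases 2 to 8, in capitals). The sequences are those of RefSeq on GRCm38.p6, and they are shown because a direct target of miR-29 often carries the complement of this seed.
mmu-miR-29a-3p: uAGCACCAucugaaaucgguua
mmu-miR-29b-3p: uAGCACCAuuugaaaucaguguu
mmu-miR-29c-3p: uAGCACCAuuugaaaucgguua
The site complementary to the seed, TGGTGCT, was absent from the annotated 3′ UTRs of all 10 genes, whereas it was present in 15.4% of tested genes with an annotated 3′ UTR (2071 of 13473). The 3′ UTR of Fitm1 has only 27 bases and that of Fitm2 has 3124. No match says only that these letters are not in these UTRs, the longest annotated for each gene. Shorter sites and sites outside the 3′ UTR were not searched.

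In saline-treated WT/Floxed livers the 10 genes covered a wide range of levels. Per kilobase of the longest coding transcript, Plin2 stood at 15047 ± 5530 normalized counts (SD, n = 5) and Cideb at 10652 ± 852, and the values of these 2 genes overlapped. Plin2 is the main perilipin of hepatocyte droplets and Cideb loads lipid onto very low density lipoprotein. G0s2 followed at 5478 ± 1513 and Plin5, which tethers droplets to mitochondria, at 1406 ± 270, each clear of its neighbours. Fitm2 (679 ± 164), Plin3 (638 ± 145) and Fitm1 (497 ± 72.6) came next and overlapped one another. Hilpda stood at 108, with livers from 85.1 to 133. Plin4 (28.2 ± 6.18) and Cidec (23.0 ± 9.97), which are abundant in adipocytes, were the lowest and overlapped.

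**Figure D1:**
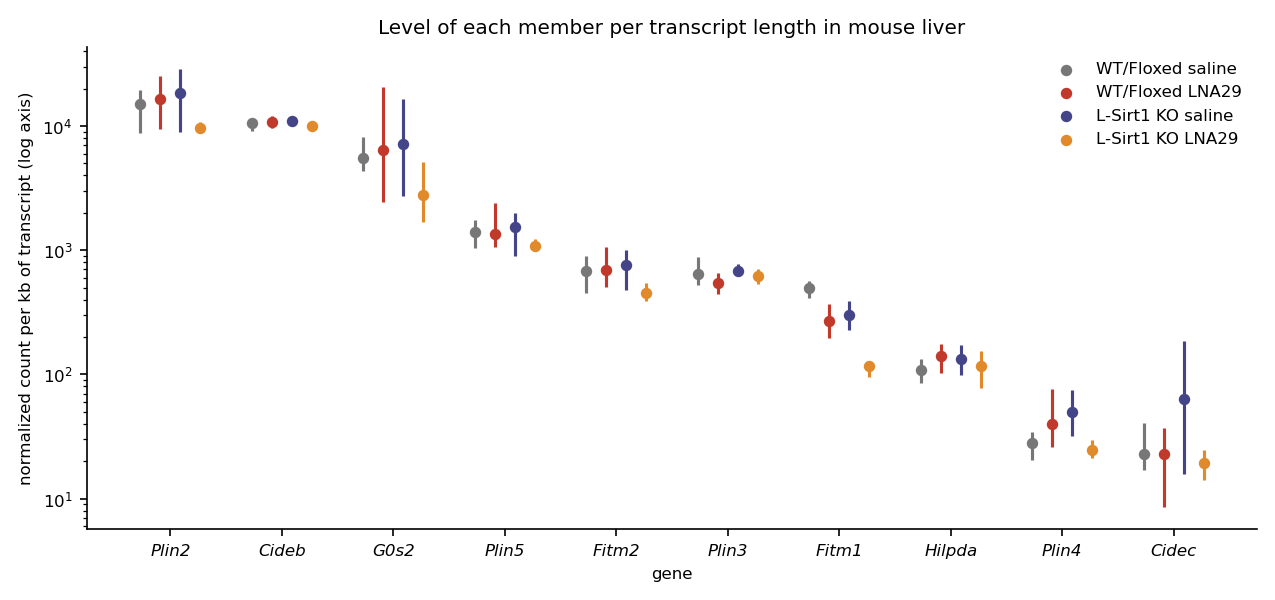
Level of each gene per kilobase of its longest coding transcript, on a log axis, in the 4 mouse groups (n = 5, 8, 4 and 4), where points are means and bars run from the lowest to the highest liver. Both mouse tables were scaled on their own, so the groups of different tables are set side by side only.

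Cideb was the most even of the genes over the 21 mouse livers, between 11139 and 14606 normalized counts. On the mouse genome Cideb (GRCm38, chr14:55754050-55758458, minus strand) overlaps Nop9 on the opposite strand by 1451 bases, of which 860 lie in exons of both. The strand setting of the quantification is not given in the sources used here, so reads of this stretch cannot be told apart, and Nop9 averaged 1449 normalized counts in WT/Floxed livers. G0s2 (chr1:193272161-193273217, minus strand) lies inside the span of Lamb3 on the opposite strand but shares no base with its coding transcripts. Plin4 (chr17:56100591-56109803) and Plin5 (chr17:56111601-56117596) are neighbours on the minus strand, 1797 bases apart.

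The comparison of LNA29 with saline asks how lowering miR-29 acts on the liver transcriptome. Fitm1 (chr14:55575617-55576954, plus strand), a FIT protein known mainly from skeletal muscle, was listed at 403, 549, 552, 492 and 418 normalized counts in the 5 saline-treated WT/Floxed livers. In the 8 LNA29-treated livers it ranged from 190 to 357, with a median of 257. Every LNA29-treated liver lay below every saline-treated liver, and 1.51% of all genes tested had groups that did not overlap in this table. The log2 fold change was -0.90, and it was -0.83 in WT mice alone and -0.97 in floxed mice alone. In mice labelled L-Sirt1 KO, Fitm1 was at 375, 221, 343 and 232 after saline and at 123, 93.2, 114 and 122 after LNA29. The groups again did not overlap (6.95% of all genes tested), and the log2 fold change was -1.34. The antisense gene Gm15932, which overlaps Fitm1 by 375 bases, averaged 21.8 normalized counts in WT/Floxed livers, against 346 for Fitm1. Because Fitm1 was chosen for this contrast, no test is given.

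**Figure D2:**
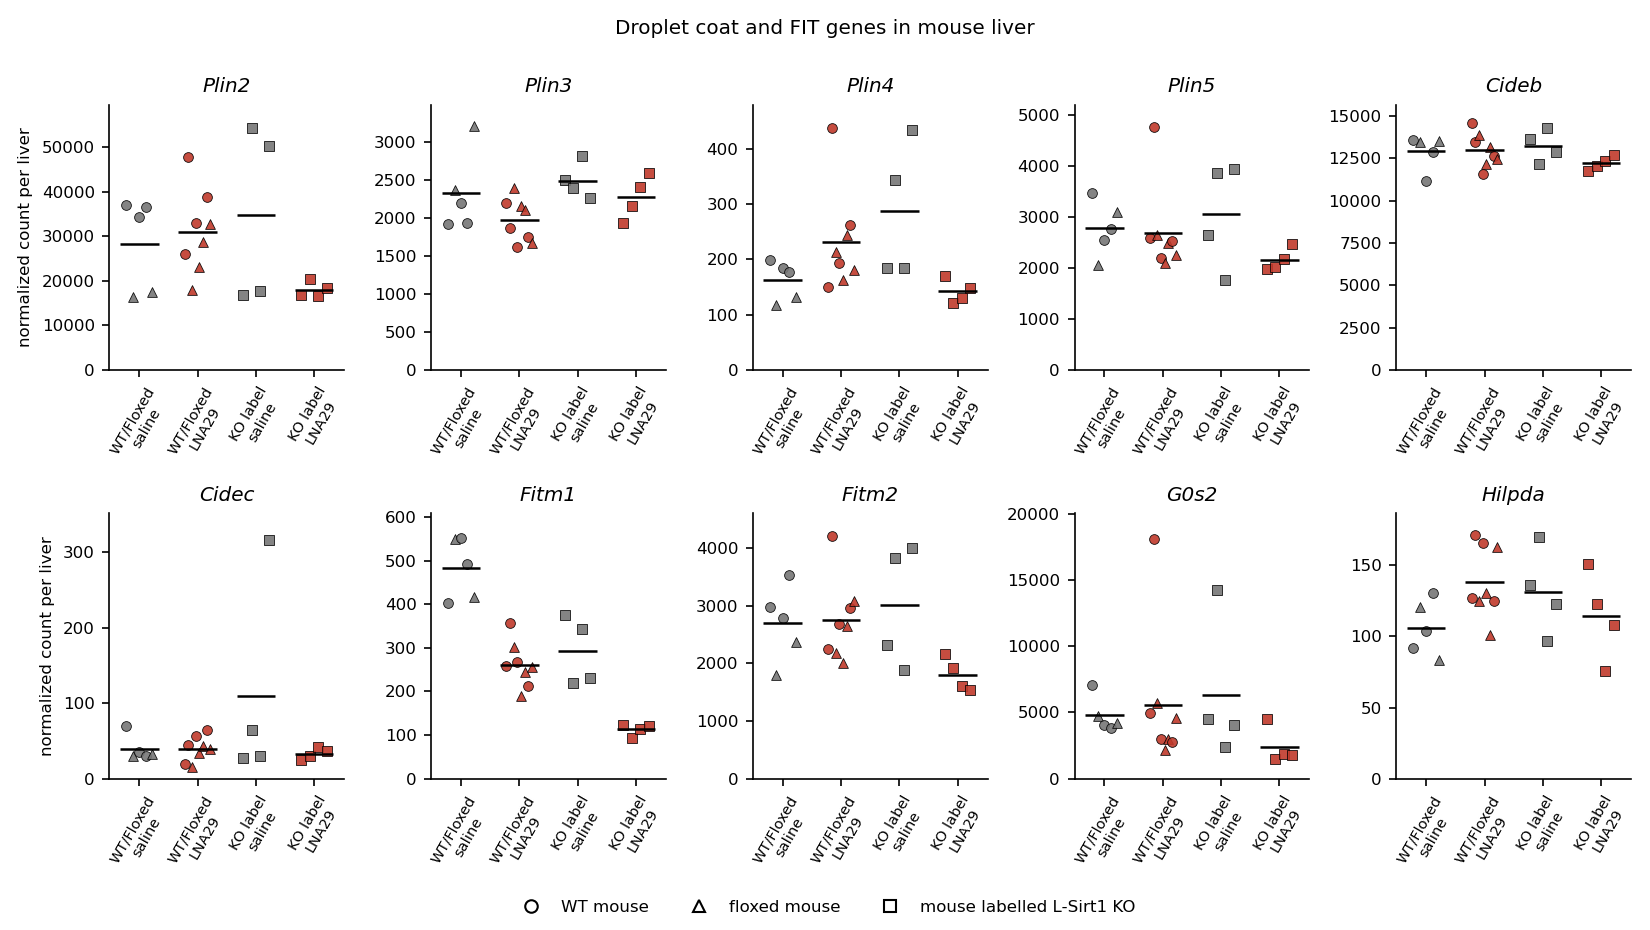
Normalized count of each of the 10 genes in every mouse liver, by group, where each point is 1 liver, the shape gives its background, and the bar is the group mean. Fitm1 lies lower after LNA29 in both tables, and the saline-treated mice labelled L-Sirt1 KO split into low and high livers for Plin2, Plin4, Plin5 and Fitm2.

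None of the other 9 genes passed the criteria in WT/Floxed mice (limma p under 0.05, adjusted p under 0.2, mean above 50 and fold change above 1.2), where 4.35% of the 15811 genes tested passed (2.42% higher and 1.93% lower). Of these 9 genes 5 lay higher and 4 lower, with a median log2 fold change of 0.01 against 0.00 for all genes tested, and each had livers of both groups overlapping. The FIT gene Fitm2 was at 2981, 1806, 2780, 3538 and 2373 after saline and between 2005 and 4211 (median 2658) after LNA29. Its log2 fold change was 0.03 with a standard error of 0.18, against -0.90 for Fitm1, whose protein acts at the same step. The difference between both genes was not tested.

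Among the perilipins in WT/Floxed mice, Plin2 was at 36960, 16453, 34426, 36595 and 17606 after saline and between 17954 and 47758 (median 30766) after LNA29, with a log2 fold change of 0.16 (SE 0.25). The 2 saline-treated floxed livers were the low ones, below all 3 saline-treated WT livers. In WT mice alone the log2 fold change was -0.02 and in floxed mice alone 0.55, neither of which passed the criteria (limma adjusted p = 0.983 and 0.277). Plin4 was at 199, 118, 185, 178 and 131 after saline and between 150 and 437 (median 204) after LNA29. Its log2 fold change of 0.46 did not pass (SE 0.23, limma adjusted p = 0.419, exact permutation p = 0.0917). Plin3, which moves from the cytosol to young droplets, had a log2 fold change of -0.23 (SE 0.13, limma adjusted p = 0.503) and Plin5 one of -0.08 (SE 0.17).

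Hilpda, a hypoxia-inducible inhibitor of ATGL, was the single one of the 9 genes with an unadjusted p under 0.05 in WT/Floxed mice, where 13.3% of all genes tested were under it. It was at 91.6, 121, 104, 131 and 83.6 after saline and between 101 and 171 (median 129) after LNA29. The log2 fold change was 0.38 (SE 0.16), with a limma p of 0.0274 and an adjusted p of 0.296. By the two-sided exact permutation test over 1287 splits, p was 0.0272. The groups overlapped. G0s2, Cidec and Cideb had log2 fold changes of -0.10 (SE 0.39), -0.06 (SE 0.34) and 0.01 (SE 0.07).

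In mice labelled L-Sirt1 KO all 9 genes lay lower after LNA29, with a median log2 fold change of -0.68 against 0.00 for all genes tested, and none passed the criteria, which 1.87% of the 15885 genes tested passed (1.19% higher and 0.68% lower). The 9 estimates stayed below 0 under every alternative run, with each liver left out in turn included. No run left out saline replicates 2 and 4 together, the highest saline livers for Plin2, Plin4, Plin5 and Fitm2. Over these mice Plin2 had a Pearson r of 0.89 with Plin4, 0.89 with Plin5 and 0.91 with Fitm2, so these genes are not separate results. Unadjusted, 3 of the 9 were under p of 0.05 (Plin4, Fitm2 and G0s2), against 11.2% of all genes tested. Plin4 was at 185, 343, 185 and 433 after saline and at 170, 121, 129 and 149 after LNA29. It was the single one of the 9 whose groups did not overlap, as in 6.95% of all genes tested. Its log2 fold change was -0.92 (SE 0.28), with a limma p of 0.00885, an adjusted p of 0.263 and an exact permutation p of 0.0286, the smallest that 70 splits allow. The adjusted p was under 0.2 with sample quality weights (0.0957) and without saline replicate 1 (0.172). With sample quality weights 5.06% of all genes passed. With each liver left out in turn 77 to 426 of all genes passed, against 297 with all livers.

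For Plin2, Plin4, Plin5 and Fitm2 the spread of the saline-treated mice labelled L-Sirt1 KO was carried by replicates 2 and 4. Fitm1 split the other way, at 375 and 343 in replicates 1 and 3 and at 221 and 232 in replicates 2 and 4. Plin3 and Cideb were highest in replicate 3. Plin2 was at 16792, 54361, 17830 and 50219 after saline and at 16940, 20348, 16592 and 18419 after LNA29. Replicates 2 and 4 lay above every LNA29-treated liver, whereas replicates 1 and 3 lay within the LNA29-treated range. The log2 fold change was -0.74 (SE 0.37, limma adjusted p = 0.512). Fitm2 was at 2318, 3834, 1889 and 3995 after saline and at 2156, 1911, 1608 and 1533 after LNA29, with a log2 fold change of -0.68 (SE 0.24, limma adjusted p = 0.321). Plin5 was at 2646, 3864, 1774 and 3948 after saline and between 1973 and 2464 after LNA29, with a log2 fold change of -0.44 (SE 0.23, limma adjusted p = 0.533). Without saline replicate 3, a low liver, Fitm2 passed at -0.88 and Plin5 at -0.67 (limma adjusted p = 0.167 and 0.162). The number of all genes that passed ran from 77 to 426 by the liver left out. With sample quality weights, where 5.06% of all genes passed, Plin2 passed at -1.04 and Fitm2 at -0.89. In all 4 genes the 2 highest saline livers were replicates 2 and 4, and without either one the log2 fold change of Plin2 was -0.45 (without replicate 2) or -0.49 (without replicate 4).

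The same 2 livers stood high in the PPAR-alpha response list. The mean log2 deviation of its 15 genes from the table mean was 1.13 in saline replicate 2 and 0.94 in replicate 4, and it was -0.20 and -0.33 in replicates 1 and 3 and -0.53 to -0.16 after LNA29. Cyp4a14, a fatty acid omega-hydroxylase and PPAR-alpha target, was at 39367, 120452, 33852 and 95016 normalized counts after saline and between 19118 and 23514 after LNA29, and it passed the criteria with a log2 fold change of -1.53 (limma adjusted p = 0.158). In WT/Floxed mice, LNA29 replicate 2, a WT mouse, was the highest of the 8 LNA29-treated livers for 7 of the 10 genes (Plin2, Plin4, Plin5, Fitm1, Fitm2, G0s2 and Hilpda), with a PPAR-alpha list level of 0.98. The saline-treated floxed replicates 2 and 5, which held the least Plin2 and Plin4 of the saline group, had list levels of -0.72 and -0.55, but Cyp4a14 was highest of the saline group in replicate 5 (75136). Saline replicate 1, highest of its group for 6 of the 10 genes, had a list level of 0.17 and Cyp4a14 at 59570. The mean deviation of 12 lipogenic genes was -0.15 and -0.42 in saline replicates 2 and 4 of the mice labelled L-Sirt1 KO. It was 0.40 and 0.61 in replicates 1 and 3. For 12 clock genes it was -0.17 and -0.25 in replicates 2 and 4, and 0.16 and 1.09 in replicates 1 and 3. LNA29 replicate 2 of the WT/Floxed mice was at -0.76 for the lipogenic genes and -0.0045 for the clock genes. The clock list holds genes that can move in opposite directions, such as Dbp and Arntl in ZFRs (below). Its mean can therefore stay near 0 when single clock genes differ, and it does not show the state of the clock. What sets these livers apart was not tested.

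**Figure D3:**
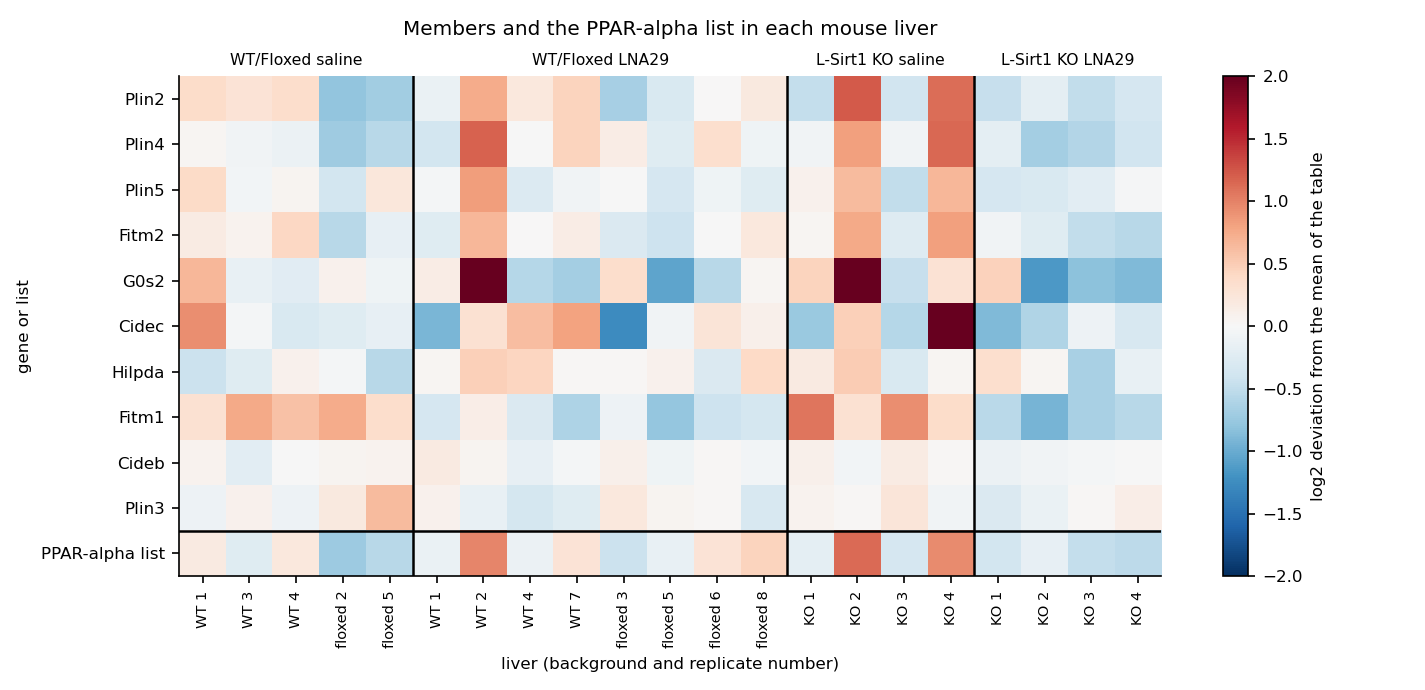
Log2 deviation of each gene from its mean over the table, by mouse liver, with the mean of the PPAR-alpha list in the bottom row; columns are livers grouped by treatment and table, and colours run from blue (lower) to red (higher) and end at 2 either way. Saline replicates 2 and 4 of the mice labelled L-Sirt1 KO and LNA29 replicate 2 of the WT/Floxed mice are red for Plin2, Plin4, Plin5 and Fitm2 and for the PPAR-alpha list.

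The promoters of these 4 genes are shown because their counts stood high in the same livers. Each run holds 250 bases before and 50 after the annotated start (RefSeq, GRCm38.p6, read on the strand of the gene), with the letters AGGTCA or their complement TGACCT, a motif that nuclear receptors such as PPAR-alpha bind, and ACGTG or CACGT, the core of the hypoxia response element, in capitals.
Plin2, chr4:86670010-86670309, minus strand: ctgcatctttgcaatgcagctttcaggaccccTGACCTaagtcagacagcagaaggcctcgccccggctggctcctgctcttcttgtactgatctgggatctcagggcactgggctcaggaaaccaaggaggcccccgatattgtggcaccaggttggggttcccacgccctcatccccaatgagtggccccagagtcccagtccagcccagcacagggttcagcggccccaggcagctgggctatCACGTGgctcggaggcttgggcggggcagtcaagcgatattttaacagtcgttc
Plin5, chr17:56117249-56117548, minus strand: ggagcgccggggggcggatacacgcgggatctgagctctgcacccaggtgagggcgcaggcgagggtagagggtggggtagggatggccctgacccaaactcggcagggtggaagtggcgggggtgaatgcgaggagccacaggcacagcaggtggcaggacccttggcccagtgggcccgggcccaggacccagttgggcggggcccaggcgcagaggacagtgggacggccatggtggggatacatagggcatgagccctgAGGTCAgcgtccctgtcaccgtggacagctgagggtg
Plin4, chr17:56109733-56110032, minus strand: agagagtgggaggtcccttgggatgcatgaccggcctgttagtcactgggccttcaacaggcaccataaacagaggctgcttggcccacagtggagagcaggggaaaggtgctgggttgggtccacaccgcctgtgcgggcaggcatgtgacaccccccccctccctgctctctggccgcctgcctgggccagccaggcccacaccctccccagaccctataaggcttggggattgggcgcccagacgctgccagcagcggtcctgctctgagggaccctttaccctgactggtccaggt
Fitm2, chr2:163472580-163472879, minus strand: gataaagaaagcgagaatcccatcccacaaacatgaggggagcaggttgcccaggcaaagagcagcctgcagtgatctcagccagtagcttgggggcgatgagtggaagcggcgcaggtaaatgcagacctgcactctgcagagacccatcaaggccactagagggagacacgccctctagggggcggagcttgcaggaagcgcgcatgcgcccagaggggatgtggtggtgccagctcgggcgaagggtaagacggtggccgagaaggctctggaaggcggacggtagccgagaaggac
Among the promoters of the 10 genes, those of Plin2 and Plin5 held AGGTCA on either strand, a motif found in 16.3% of all 32851 promoters of this length. Plin2 and Hilpda held ACGTG on either strand (19.6% of all promoters), and in Plin2 it lay within the E-box CACGTG (7.15%). None of the 10 held the direct repeat of AGGTCA with 1 base between the copies (0.0396%) or the sterol response motif TCACNCCAC (1.24%). A match of these letters is a description of the sequence.

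Within the saline-treated mice labelled L-Sirt1 KO, Cidec and G0s2 had the widest ranges of the 10 genes. G0s2 was at 4483, 14231, 2379 and 4024 after saline in mice labelled L-Sirt1 KO and at 4501, 1481, 1849 and 1782 after LNA29, so that saline replicate 2 stood alone. The log2 fold change was -1.20 (SE 0.52, limma adjusted p = 0.430). In WT/Floxed mice LNA29 replicate 2 was at 18079, whereas the other 7 LNA29-treated livers ranged from 2140 to 5712. Cidec, which fuses droplets and is abundant in adipocytes, was at 27.0, 63.9, 30.4 and 316 after saline in mice labelled L-Sirt1 KO and between 24.2 and 42.3 after LNA29.

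The high Cidec value of saline replicate 4 came with adipocyte transcripts. The 7 adipocyte markers summed to 2288 normalized counts in that liver, with Adipoq at 150, Cfd at 862 and Plin1 at 94.0, whereas saline replicate 2 had a sum of 301 and Adipoq at 1.64. Without saline replicate 4 the log2 fold change of Cidec was -0.20, against -0.96 with all 8 livers (SE 0.67, limma adjusted p = 0.641). LNA29 replicate 1 of the mice labelled L-Sirt1 KO had a skeletal muscle marker sum of 2865, with Acta1 at 988, and Adipoq at 36.0, and its Fitm1 was at 123. When the 3 livers with Adipoq above 10 or Acta1 above 100 were left out, the log2 fold changes in mice labelled L-Sirt1 KO were -1.51 for Fitm1, -0.39 for Plin2, -0.75 for Plin4, -0.58 for Fitm2 and -0.19 for Cidec, and no gene of the 9 passed. In WT/Floxed mice, without the 2 livers over these limits, Fitm1 was at -0.95. Bulk counts cannot tell fewer cells of a type from less RNA per cell.

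**Figure D4:**
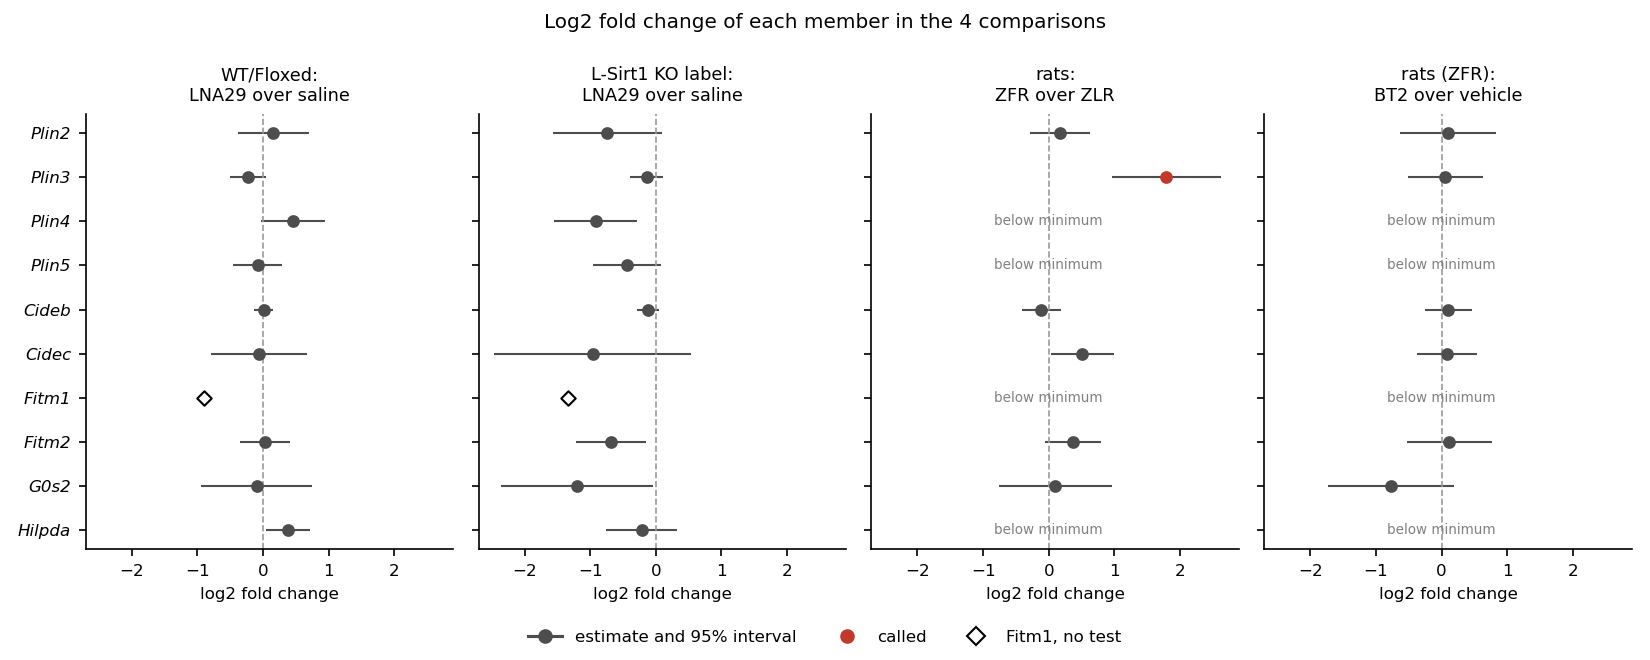
Log2 fold change of each gene in the 4 comparisons, with 95% intervals from limma, where open diamonds mark Fitm1, which has no test, red marks the gene that passed the criteria, and genes under the minimum mean of 10 normalized counts are named as such. All LNA29 estimates in mice labelled L-Sirt1 KO lie below 0, and Plin3 in ZFRs over ZLRs is at 1.79.

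Whether LNA29 acted differently in the mouse tables was tested as an interaction, which 0.0449% of 15601 genes passed (7 genes at a limma adjusted p under 0.2, and 9.14% of genes at an unadjusted p under 0.05). None of the 9 genes passed. Plin4, whose estimates were 0.46 for WT/Floxed livers and -0.92 for livers labelled L-Sirt1 KO, had a difference of -1.37 (SE 0.38, limma adjusted p = 0.267). Its adjusted p was 0.0648 with sample quality weights, 0.156 without LNA29 replicate 1 of the WT/Floxed mice, and 0.183 and 0.134 without saline replicates 1 and 3 of the mice labelled L-Sirt1 KO. With each liver left out in turn, 0 to 233 of all genes passed. For Fitm2, Hilpda and Plin2 the differences were -0.71, -0.59 and -0.90, with limma adjusted p above that of Plin4, and Fitm2 passed with sample quality weights at -0.84, where 7.82% of all genes passed. The difference for Fitm1, given without a test, was -0.44. The WT/Floxed side of the interaction included younger WT mice, so the genotype label cannot be told apart from age and background. No run used floxed mice alone on that side.

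In the rats 6 of the 10 genes had a mean of at least 10 normalized counts and were tested. Fitm1 was listed at 0 in 15 of the 16 rat livers and at 0.268 in ZLR 1. Plin4 was listed at 0 in 9 livers and reached 5.88, Hilpda reached 3.56, and Plin5 reached 10.5, a value that stood for 1 read in ZLR 3. Scaled to the total of each library, Cidec had a median of 89.4 CPM in rats and 0.585 CPM in mice, whereas Plin5 had 3.20 in rats and 42.6 in mice. Plin2 had 166 in rats and 427 in mice. Sex, age, annotation and depth also differ between these sets of livers, so that the species cannot be told apart from them, and no test was made.

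The comparison of ZFRs with ZLRs contrasts obese rats that lack leptin signalling with lean rats. Plin3 was at 104, 144, 85.7 and 117 normalized counts in ZFRs and at 21.9, 28.1, 21.1 and 73.1 in ZLRs. All 4 ZFRs lay above all 4 ZLRs, and in 14.5% of the genes tested the groups did not overlap, with both directions counted. The log2 fold change was 1.79 (SE 0.37, limma adjusted p = 0.0257, exact permutation p = 0.0286), so that Plin3 rose 3.46-fold and was 1 of the 367 genes called among 8633 (4.25%, with 1.8% higher and 2.46% lower). The values of ZLR 3 and ZLR 4 rest on 2 and 7 estimated reads. Without the libraries under 1 M reads the log2 fold change was 2.23 (limma adjusted p = 0.00113), and 5.13% of 8621 genes passed. The call was lost without any single one of the other 7 rats (adjusted p of 0.0515 to 0.0863) and was kept without ZLR 4 (0.000948), and it was lost when no minimum mean was set (0.0851). With each rat left out in turn 225 to 379 of all genes passed.

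**Figure D5:**
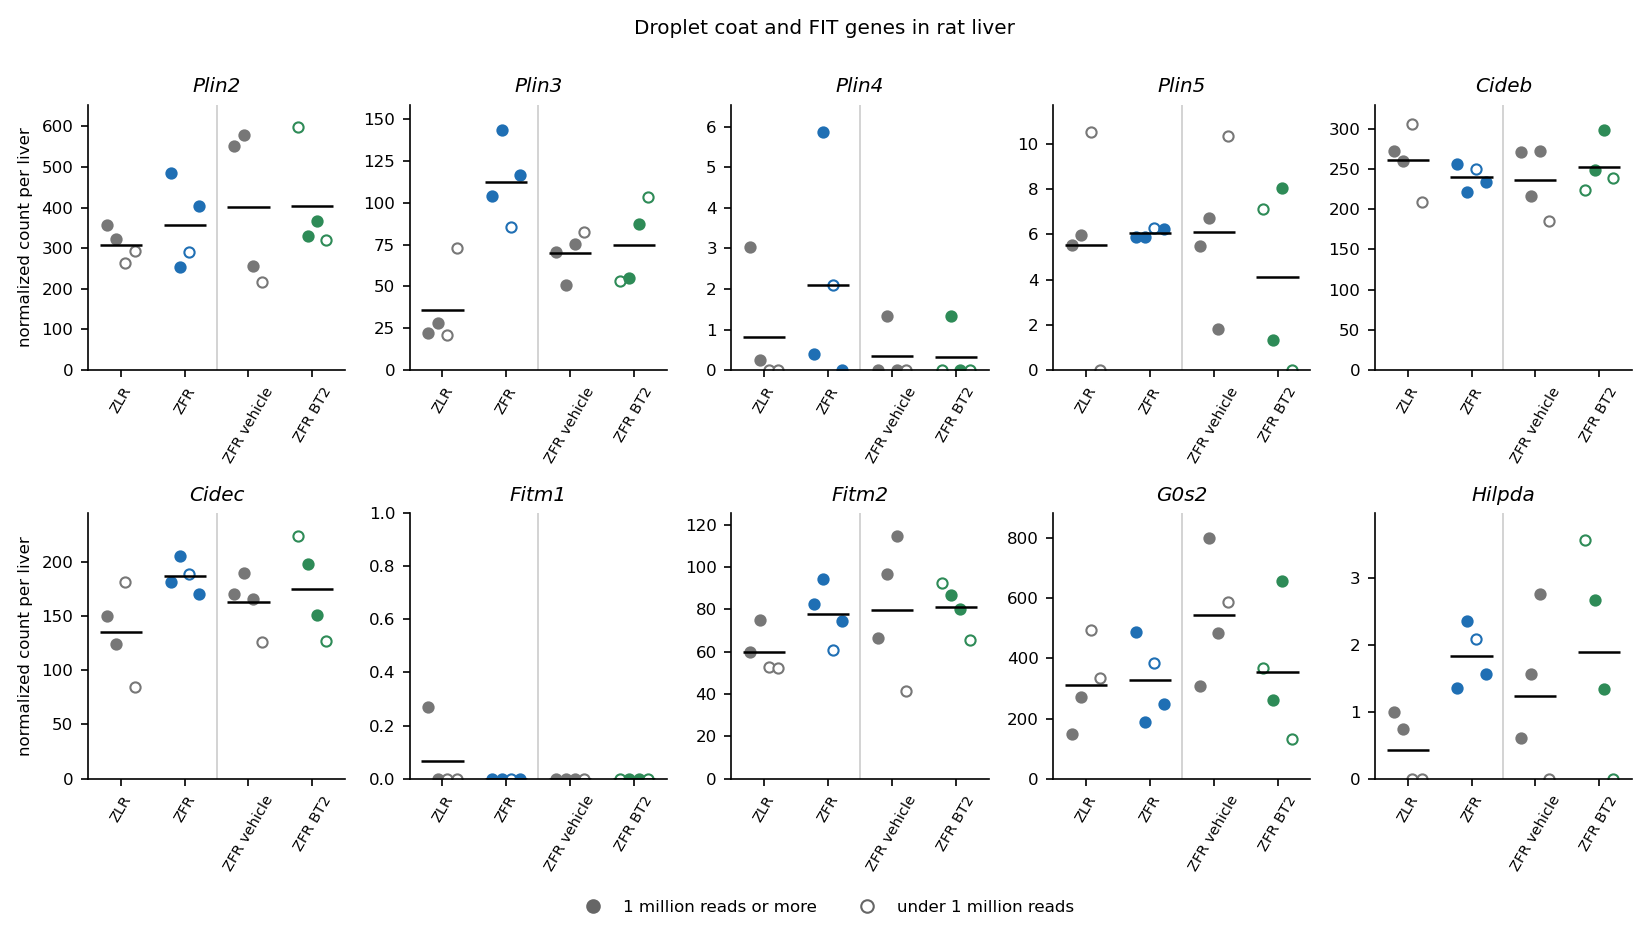
Normalized count of each of the 10 genes in every rat liver, with both rat tables parted by a grey line since they were scaled on their own, where each point is 1 liver, open points are libraries under 1 M estimated reads, and bars are group means. Plin3 is higher in all 4 ZFRs than in all 4 ZLRs, and Fitm1 is listed at 0 in all livers but ZLR 1.

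Cidec, a PPAR-gamma target in fatty liver, was at 181, 205, 189 and 171 in ZFRs and at 150, 125, 182 and 84.8 in ZLRs. Its log2 fold change of 0.51 (SE 0.21) did not pass (limma adjusted p = 0.266). It passed with sample quality weights (0.0108) and with precision weights from the estimated reads (0.00113), where the estimates were 0.48 and 0.56 and 13.5% and 30.8% of all genes passed. Fitm2 was at 82.6, 94.1, 60.6 and 74.7 in ZFRs and at 59.9, 74.8, 52.7 and 52.2 in ZLRs, with a log2 fold change of 0.37 (SE 0.19, limma adjusted p = 0.373). With precision weights it was 0.43 (0.0447). Plin2 was at 485, 253, 290 and 404 in ZFRs and at 357, 323, 263 and 292 in ZLRs, and the log2 fold change of 0.17 had a 95% interval of -0.28 to 0.63. G0s2 and Cideb had log2 fold changes of 0.10 (SE 0.38) and -0.11 (SE 0.13). Hilpda, under the minimum, was at 1.35, 2.35, 2.09 and 1.56 in ZFRs and at 0.996, 0.734, 0 and 0 in ZLRs. Its difference on log2(normalized count + 1) was 1.04 (limma adjusted p = 0.197, with no minimum mean). The Hilpda values of ZFR 2, 3 and 4 rest on 2, 1 and 1 estimated reads. In ZLR 3 and 4, listed at 0, 1 read stood for 10.5 and 10.4 normalized counts, more than any ZFR value of Hilpda. Cidec rested on 8.12 estimated reads in ZLR 4, and Fitm2 on 5 in each of ZLR 3 and 4.

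No gene passed between BT2 and vehicle in ZFRs. Of 8405 genes tested 0% were called by limma at an adjusted p under 0.05, with 332 genes (3.95%) at an unadjusted p under 0.05, none of which was among the 6 tested droplet genes. The groups did not overlap in 2.96% of genes, again with none of the 6. G0s2 had the widest gap, at 367, 260, 656 and 131 normalized counts after BT2 and at 308, 800, 486 and 589 after vehicle. The groups overlapped, and the log2 fold change was -0.77 with a 95% interval of -1.73 to 0.18 (limma adjusted p = 0.898). Plin3 was at 53.4, 54.7, 87.0 and 103 after BT2 and at 70.7, 51.0, 75.2 and 82.6 after vehicle. The log2 fold changes of Plin2, Plin3, Cideb, Cidec and Fitm2 lay between 0.06 and 0.12, with 95% intervals that together ran from -0.64 to 0.83.

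Of all genes tested, 4.35% passed in WT/Floxed mice, 1.87% in mice labelled L-Sirt1 KO, 4.25% in ZFRs and 0% with BT2. The counts of the lists below are set beside these shares. Of the list of droplet biogenesis and surface genes, 17 were tested for LNA29 in the WT/Floxed table and 18 in the other mouse table. None passed in either (median log2 fold changes of -0.05 and -0.05). In ZFRs 1 of 16 passed, the droplet-bound methyltransferase-like gene Mettl7b, which fell by 0.82 on the log2 scale (median 0.05 against 0.07 for all genes). Of the 8 droplet lipolysis genes none passed with LNA29 in either table (medians 0.01 and -0.08), whereas 2 passed in ZFRs. Pnpla3, a droplet lipase relative that is raised with lipogenesis, rose by 4.00 on the log2 scale (102 normalized counts in ZLRs and 1604 in ZFRs). Ces1d, a carboxylesterase that hydrolyses triglyceride, fell by 2.40 on this scale (765 in ZLRs and 157 in ZFRs). With BT2 none of the 15 and none of the 8 passed (medians -0.02 and -0.19).

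Lipogenic genes, which make the fatty acids stored in droplets, were lower after LNA29 in WT/Floxed mice. Of 12 genes 5 passed, against 4.35% of all genes tested, and all 12 lay lower (median -0.55). Those that passed were Thrsp (-1.63), Elovl6 (-0.93), Acss2 (-0.84), Acly (-0.78) and Fasn (-0.68). In mice labelled L-Sirt1 KO none of 12 passed and 11 lay lower (median -0.25). In ZFRs all 11 lay higher and 8 of them passed (median 1.77), with the largest log2 fold changes in Scd (3.37), Fasn (2.66), Acly (2.01), Me1 (1.81) and Thrsp (1.77). With BT2 none of 11 passed and 10 lay lower (median -0.56). The groups did not overlap for 4 of the 11, against 2.96% of all genes tested. Against these 8 of 11 lipogenic genes, 1 of the 6 droplet genes tested passed in ZFRs, where 4.25% of all genes tested passed. The difference between the lipogenic and the droplet share was not tested.

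Of the 15 PPAR-alpha genes 1 passed in WT/Floxed mice, the hormone gene Fgf21, which rose by 1.90 (median 0.20), and 1 in mice labelled L-Sirt1 KO, Cyp4a14, with 14 of 15 lower (median -0.59). In ZFRs 2 of 13 passed, of which Vnn1 rose by 1.40 and Acadm fell by 0.55 (median 0.21), and with BT2 none of 13 passed (median 0.20). Of the PPAR-gamma list Lpl, the lipoprotein lipase, rose by 0.80 with LNA29 in WT/Floxed mice (1 of 6, median -0.10), none of 6 passed in mice labelled L-Sirt1 KO (median -0.09), the fatty acid transporter Cd36 rose by 1.71 in ZFRs (1 of 4, median 1.54), and none of 2 passed with BT2. Of 11 hypoxia genes none passed in WT/Floxed mice (median -0.12). In mice labelled L-Sirt1 KO 3 of 11 passed (median -0.20), against 1.87% of all genes tested. Of these Ankrd37 (-1.27) and Bnip3 (-0.62) fell and the glucose transporter Slc2a1 (0.58) rose. Of the 6 tested in rats, Pdk1 rose by 0.91 in ZFRs (median 0.05) and none passed with BT2 (median -0.20).

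Of the 12 clock genes Nfil3 rose by 0.36 with LNA29 in WT/Floxed mice (median -0.11) and none passed in mice labelled L-Sirt1 KO (median -0.26). In the latter mice the log2 fold changes of clock genes ran from -3.04 to 1.51, with 4 higher and 8 lower. The groups did not overlap for 4 of the 12, against 6.95% of all genes tested. In ZFRs 6 of 11 passed (median 0.39), against 4.25% of all genes tested. The largest log2 fold changes were in Dbp (5.01), Per3 (4.30), Npas2 (-3.65), Arntl (-2.46) and Per2 (2.11). With BT2 none of 11 passed (median -0.31). Droplet genes are known to vary over the day. The part of the clock in the Plin3 value, and in the droplet gene values of mice labelled L-Sirt1 KO, was not tested.

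Of the hepatocyte markers Apoa1 rose by 0.51 with LNA29 in WT/Floxed mice (1 of 6), and in ZFRs Tf rose by 0.44 while Cps1 and Ttr fell by 0.58 and 0.43 (3 of 6). Of 7 macrophage markers Clec4f and Vsig4 fell by 0.29 and 0.54 in mice labelled L-Sirt1 KO, and none passed in the other comparisons. No hepatocyte marker passed in mice labelled L-Sirt1 KO or with BT2, and no stellate cell, red blood cell, adipocyte or skeletal muscle marker passed in any comparison. All 7 adipocyte markers were found, with sums of 296 to 731 (LNA29) and 354 to 406 (saline) in WT/Floxed livers and of 376 to 1066 and 301 to 2288 in livers labelled L-Sirt1 KO. Lep was at 0 in all WT/Floxed livers. In these livers the single gene Fabp4, at 278 to 574, made up most of each adipocyte sum, and Adipoq ran from 0 to 13.3. The 7 skeletal muscle markers summed to 23.1 to 421, 33.1 to 42.5, 30.0 to 2865 and 33.8 to 49.3 in the same order, with Myh4 at 0 in the first and Tnnt3 at 0 in the last of these groups. All 7 lay higher after LNA29 in mice labelled L-Sirt1 KO (median log2 fold change 2.01), and none passed. In rats the adipocyte sums were 30.2 to 110 in ZFRs, 10.4 to 94.97 in ZLRs, 7.12 to 58.5 with BT2 and 31.0 to 46.9 with vehicle, and the sums of the 5 muscle markers found were 0 to 447, 2.94 to 236, 0 to 469 and 1.83 to 36.6. The 8 stellate cell markers summed to 330 to 432 in ZFRs and 270 to 306 in ZLRs, which did not overlap, and the part of these cells in the Plin3 value was not tested. The macrophage sums (508 to 846 and 459 to 664) and the sums of the 2 red blood cell markers found (389 to 902 and 159 to 485) overlapped. The part of adipocytes and muscle in the droplet gene values was not tested beyond the values without the livers named above.

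The genes whose pattern over the mouse livers was most like that of Fitm1, among 12758 genes, were Mgst1 (Pearson r of log2 values 0.84 over 13 WT/Floxed livers and 0.91 over 8 livers labelled L-Sirt1 KO), Bphl (0.81 and 0.88) and Hspb8 (0.79 and 0.85). Mgst1 encodes a microsomal glutathione transferase and Hspb8 a small heat shock protein. Their log2 fold changes with LNA29 were -0.29, -0.33 and -0.45 for WT/Floxed livers and -0.25, -0.25 and -0.41 for livers labelled L-Sirt1 KO, and since they were picked for their likeness to Fitm1 these values have no test. For Cidec they were Ddhd2 (0.80 and 0.86), a triglyceride lipase, Taf4 (0.72 and 0.83) and Spsb1 (0.72 and 0.80). These livers share treatment and scaling, and the values of r are given as a description.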

How the data were processed

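RNA-seq of 21 mouse and 16 rat livers was used. Per the study's methods and the submitters' processing notes, the authors sequenced polyA-selected libraries, aligned reads with STAR to mm10 or rn6, estimated counts per gene with Salmon and normalized them with DESeq2 within each table (the strand setting is not given in the sources used here). The deposited values are thus a normalized signal, not counts: 69.27 to 75.58% of low values in mice and 74.23 to 90.28% in rats were whole reads (within 0.01 read), so no count model was run. Rows without a symbol held 0.0134 to 0.0461% of the signal and were left out, as were symbols listed more than once (0.0896 to 2.17%).

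log2(normalized count + 1) of genes with a mean of at least 10 was tested within each table with limma 3.58.1 (R 4.3.3, lmFit and eBayes with a trend) and Benjamini-Hochberg adjustment over all tested genes. Fold changes on this scale understate those of low genes. LNA29 calls used the study's criteria (p under 0.05, adjusted p under 0.2, mean above 50, fold above 1.2), rat calls an adjusted p under 0.05, and the interaction, fitted to both mouse tables, an adjusted p under 0.2. Single genes were also tested by two-sided exact permutation over all splits. The fits were also run on simulated data, whose outcome is not given here and is not used as support. Depth was estimated from the value of 1 read. Sequences came from RefSeq and gene models from GRCm38. No rat genome was used here.

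The text names the 10 genes, of each list the genes that passed or the 5 with the largest change where more passed, and the 3 genes most like Fitm1 and Cidec. The genes and the lists (droplet biogenesis, droplet lipolysis, PPAR-alpha, PPAR-gamma, lipogenesis, hypoxia, clock, and markers of hepatocytes, adipocytes, skeletal muscle, stellate cells, macrophages and red blood cells) were chosen with earlier results of these data known. The alternatives tried were TMM scaling, no minimum mean, a pseudocount of 10, sample quality weights, flow cell or background as a covariate, a replicate block, an adjusted p under 0.05, precision weights, no libraries under 1 M reads, and each library left out. WT or floxed mice alone and the exclusion of livers by Adipoq or Acta1 were chosen after seeing the data.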

Additional observations from a re-analysis of the deposited data

Results flagged for a closer look

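Of the 64 groups of livers checked for the tested genes, 4 held a liver far from the others on the log2 scale (Dixon's test), where chance flags about 1 in 20. In WT/Floxed livers after LNA29, Plin5 was at 4763 in replicate 2, with the next liver at 2649, and G0s2 was at 18079 in the same replicate, with the next at 5712. In saline-treated WT/Floxed livers, Cideb was lowest in replicate 3 at 11139, with the next at 12845, and Cidec was highest in replicate 1 at 69.9, with the next at 35.4.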

How the results depend on the processing

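None of the 9 tested droplet genes passed in WT/Floxed mice under any alternative run, and none of the 6 tested in rats passed with BT2. The number of all genes called moved more. In WT/Floxed mice it was 688, and it was 396 with no minimum mean, 1308 with sample quality weights, 206 at an adjusted p under 0.05 and 88 in WT mice alone. In mice labelled L-Sirt1 KO it was 297, and 160, 804 and 37 under the first 3 of these settings, 103 with flow cell as a covariate and 59 without livers high in Adipoq or Acta1. For ZFRs over ZLRs it was 367, and 241 with no minimum mean, 1169 with sample quality weights and 2662 with precision weights, of which 78.8% were higher in ZFRs against 42.2% in the fit as reported. With BT2 it was 0, and 1 with a pseudocount of 10, 1 with sample quality weights, 1 with precision weights and 2 without libraries under 1 M reads. For the interaction it was 7, and 1220 with sample quality weights, 19 with the flow cell covariate and 4 without livers high in Adipoq or Acta1.

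With sample quality weights 3 droplet genes passed in mice labelled L-Sirt1 KO (Plin2, Plin4 and Fitm2), 2 in the interaction (Plin4 and Fitm2) and 2 in ZFRs (Plin3 and Cidec), where 5.06%, 7.82% and 13.5% of all genes passed. With precision weights 3 of 6 passed in ZFRs (Plin3, Cidec and Fitm2), where 30.8% of all genes passed, and with no minimum mean 0 passed, as more genes were tested. The causes of the other changes were not tested.

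Estimates near 0 changed sign. In WT/Floxed mice Plin2 was at -0.0056 and Fitm2 at -0.061 with sample quality weights. In WT mice alone Plin2, Cidec, Fitm2 and G0s2 were at -0.019, 0.0060, -0.066 and 0.13, in floxed mice alone Cideb was at -0.066, and without livers high in Adipoq or Acta1 Cidec was at 0.043. With precision weights Cideb was at 0.027 in ZFRs. With BT2 Plin2 and Fitm2 were at -0.28 and -0.035 with sample quality weights, Plin2, Cidec and Fitm2 at -0.17, -0.032 and -0.12 with precision weights, and at -0.32, -0.017 and -0.11 without libraries under 1 M reads.

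With each library left out in turn, genes called ran from 381 to 1006 in WT/Floxed mice, from 77 to 426 in mice labelled L-Sirt1 KO, from 225 to 379 in ZFRs, from 0 to 2 with BT2 and from 0 to 233 for the interaction. Droplet genes called ran from 0 to 0, 0 to 2, 0 to 1, 0 to 0 and 0 to 1. The estimates that changed sign ran in WT/Floxed mice from -0.014 to 0.28 for Plin2, -0.20 to 0.0086 for Plin5, -0.043 to 0.032 for Cideb, -0.17 to 0.17 for Cidec, -0.11 to 0.14 for Fitm2 and -0.39 to 0.053 for G0s2. They ran from -0.21 to 0.37 for G0s2 in ZFRs and from -0.033 to 0.16 for Plin3 in the interaction. With BT2 they ran from -0.15 to 0.32 for Plin2, -0.12 to 0.20 for Plin3, -0.0048 to 0.18 for Cideb, -0.046 to 0.23 for Cidec and -0.16 to 0.32 for Fitm2.

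The replicate numbers did not pair the livers, since correlations of same-numbered livers ran from -0.28 to 0.24. With the replicate number as a block, 56 genes were called in WT/Floxed mice, 145 in mice labelled L-Sirt1 KO, 221 in ZFRs and 0 with BT2, Fitm2 and G0s2 in WT/Floxed mice were at -0.036 and 0.12, and Plin3 was the single droplet gene called.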
